A study of Mus musculus with 6 samples.

Results

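The proteases described here are the matrix metalloproteinase (MMP) genes *Mmp13*, *Mmp12*, *Mmp1b*, *Mmp3*, *Mmp1a*, *Mmp10* and *Mmp8* of the cluster on mouse chromosome 9, and the inhibitors are *Timp1*, *Timp2* and *Timp3*. These 10 genes were taken by name from the 40166 genes of the count table, with their change under treatment already known. Their values are therefore given as a description, without a test. RNA was sequenced from 6 subcutaneous tumors of YUMM3.3, a single BRAF-mutant mouse melanoma cell line grown in immunocompetent C57BL/6 mice implanted at 8 to 10 weeks of age. Of these, 3 tumors (vehicle 7, vehicle 8 and vehicle 9) came from mice given water as vehicle, and 3 (RGS 10, RGS 11 and RGS 12) came from mice given rigosertib (RGS), a small molecule that mimics RAS, at 300 mg/kg. Both were dosed by oral gavage 5 days a week, and all tumors were collected at 17 days of treatment. The sources used here do not tie each library to an animal, so standard errors and p-values cover the spread between these libraries.

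The libraries held between 13837932 and 32555494 counts, and every RGS library was shallower than every vehicle library, so that sequencing depth followed the treatment and the effects of both cannot be told apart. A floor of 3 counts lay between 0.0856 and 0.226 counts per 1000000 counts of the scaled library (CPM), and it covers counting error only. The tumors were checked against markers of the cells that they could hold. The leukocyte gene *Ptprc* had 0 counts in all 6 libraries, which allows a share of up to 2.17e-05 percent of a library, and *Cd3e*, added after its values were seen, was also at 0. At most 3 counts in each library were found for 8 of 11 neutrophil markers, 6 of 10 macrophage markers (*Adgre1*, *Csf1r* and *Lyz2* among them) and all 7 mast cell markers. The pigment genes *Tyr*, *Tyrp1*, *Dct* and *Mlana* were also at or under 3 counts, 4 of 8 melanocytic markers. Of the other melanocytic markers, *Mitf* had 74 to 261 counts in each library, *Pmel* 0 to 25, *S100b* up to 48 and *Sox10* 18 counts in RGS 11 alone. The summed level of the 8 was 4.94 to 7.68 CPM with vehicle and 4.53 to 12.7 CPM with RGS. The summed level of 11 keratinocyte markers was 4.49 to 7.42 CPM with vehicle and 40.2 to 59.1 CPM with RGS. Most of it was *Sfn* (mean levels of 4.73 and 35.1 CPM) and *Ivl* (0 and 12.3 CPM). Of the 11, 6 stayed at or under 3 counts, *Krt5*, *Krt14* and *Trp63* among them. The summed level of 8 fibroblast markers was 175 to 235 CPM with vehicle and 119 to 138 CPM with RGS, most of it *Pdgfra* (mean levels of 179 and 110 CPM). Of the 7 that could be tested, *Dcn* was called higher (log2 fold change 3.24, edgeR adjusted p = 6.23e-05). *Pdgfra* (−0.70, edgeR adjusted p = 0.00312) and *Pdgfrb* (−2.20, edgeR adjusted p = 0.000179) were called lower, and the others did not pass. The summed level of 6 endothelial markers was 2.49 to 4.10 CPM with vehicle and 6.33 to 13.8 CPM with RGS. Of the 4 that could be tested, only *Cdh5* passed (mean levels of 0.555 and 6.20 CPM, edgeR adjusted p = 0.000637). *Vwf* (2.27 and 2.87 CPM) was among those that did not. The part that these cell types had in the results was not tested, and in bulk tumors fewer cells of a type and less RNA per cell cannot be told apart.

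MMPs are zinc-dependent enzymes that cut collagens, proteoglycans and other proteins around cells. Most are secreted as inactive proenzymes, which serine proteases such as plasmin, or other MMPs, activate by removing a propeptide. The tissue inhibitors of metalloproteinases (TIMPs) bind the active site of an MMP and block it. In melanoma and other tumors, MMPs are known for their part in invasion and in the remodeling of the stroma. Several MMP genes carry a binding site for activator protein 1 (AP-1), the FOS and JUN transcription factor complex, a short way upstream of a TATA box.

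The stretches upstream of the start sites are shown first, because the proteases of the cluster differed widely in level while sharing these short motifs. The sequences are those of RefSeq on GRCm38.p6, in which all 10 genes matched an entry. Each is the 120 bases before the start site, 5′ to 3′ on the strand of the gene, with the letters TGAGTCA or TGACTCA of the AP-1 motif in capitals.
Mmp10, chr9:7502222-7502341, plus strand: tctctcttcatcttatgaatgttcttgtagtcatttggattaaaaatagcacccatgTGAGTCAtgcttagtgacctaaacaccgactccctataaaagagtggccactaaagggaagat
Mmp3, chr9:7445702-7445821, plus strand: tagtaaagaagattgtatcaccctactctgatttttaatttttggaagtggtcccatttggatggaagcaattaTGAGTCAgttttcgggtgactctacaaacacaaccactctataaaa
Mmp1a, chr9:7464021-7464140, plus strand: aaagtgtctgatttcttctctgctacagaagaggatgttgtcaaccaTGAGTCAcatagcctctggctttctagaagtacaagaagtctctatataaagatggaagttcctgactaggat
Mmp1b, chr9:7388027-7388146, minus strand: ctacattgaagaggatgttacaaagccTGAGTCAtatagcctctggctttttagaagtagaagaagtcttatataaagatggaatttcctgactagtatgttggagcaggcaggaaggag
Mmp13, chr9:7272394-7272513, plus strand: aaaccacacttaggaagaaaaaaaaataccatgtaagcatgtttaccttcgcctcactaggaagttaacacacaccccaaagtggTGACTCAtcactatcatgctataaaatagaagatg
Mmp8, chr9:7558309-7558428, plus strand: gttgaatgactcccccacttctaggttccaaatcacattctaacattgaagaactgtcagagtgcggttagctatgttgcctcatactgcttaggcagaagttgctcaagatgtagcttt

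Motifs were searched in windows of 300 bases, from 250 before to 50 after each start site. The AP-1 letters TGAGTCA or TGACTCA, which are each other's reverse complement and so cover both strands, were in the windows of 6 of the 7 proteases (*Mmp12* in the second of its windows only) and of 0 of the 3 Timp genes. Over all 32851 promoter windows of this length, 5.2% held them. The first base of the match lay 63 bases before the start site in *Mmp10*, 46 in *Mmp3*, 73 in *Mmp1a*, 93 in *Mmp1b* and 35 in *Mmp13*. *Mmp8*, the protease without the letters, had no counts, but *Mmp7*, the last gene of the cluster, held TGAGTCA at 63 bases before its start and had no counts either. The TATA letters TATAAA, searched on the gene strand, were also in 6 of 7 proteases and 0 of 3 Timp genes, against 8.32% of all windows. In *Mmp12* they were in the second window only and began 4 bases after the start site. Those of *Mmp3* began 7 bases before it. With a second window, *Mmp12* also had more chances to match than a single window. Both motifs were thus more frequent in the protease windows than among all windows, as a description of the letters only. The windows of *Mmp1a* and *Mmp1b* were identical at 89.1% of 274 aligned bases, and those of *Mmp3* and *Mmp10* at 70.3% of 222.

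The proteases of the cluster stood at a higher level with RGS than with vehicle wherever they were detected, and *Mmp10* and *Mmp3* made up nearly all of the change. Of the 10 genes, 9 passed the filter, which asked for a median of 5 or more counts in either group. *Mmp8* did not, and *Mmp1a*, *Mmp1b* and *Mmp12* passed only through the RGS tumors, so that they had to differ. Across all 15355 genes that passed, edgeR's quasi-likelihood test at an adjusted p under 0.05 called 32.8%, of which 16.3% of all genes were higher and 16.5% lower in RGS tumors, and the median log2 fold change was −0.05. Of the 9 genes, 7 were called higher, 1 was called lower (*Timp3*) and *Mmp13* did not pass. The RGS values lay above all vehicle values for 8 and below them for 1, against 21.7% and 24% of all genes. As the genes were chosen on this contrast, nothing is read from these counts. Levels are given below in CPM scaled by TMM (trimmed mean of M-values) factors, and comparisons between genes in CPM per kilobase of gene length.

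**Figure D1:**
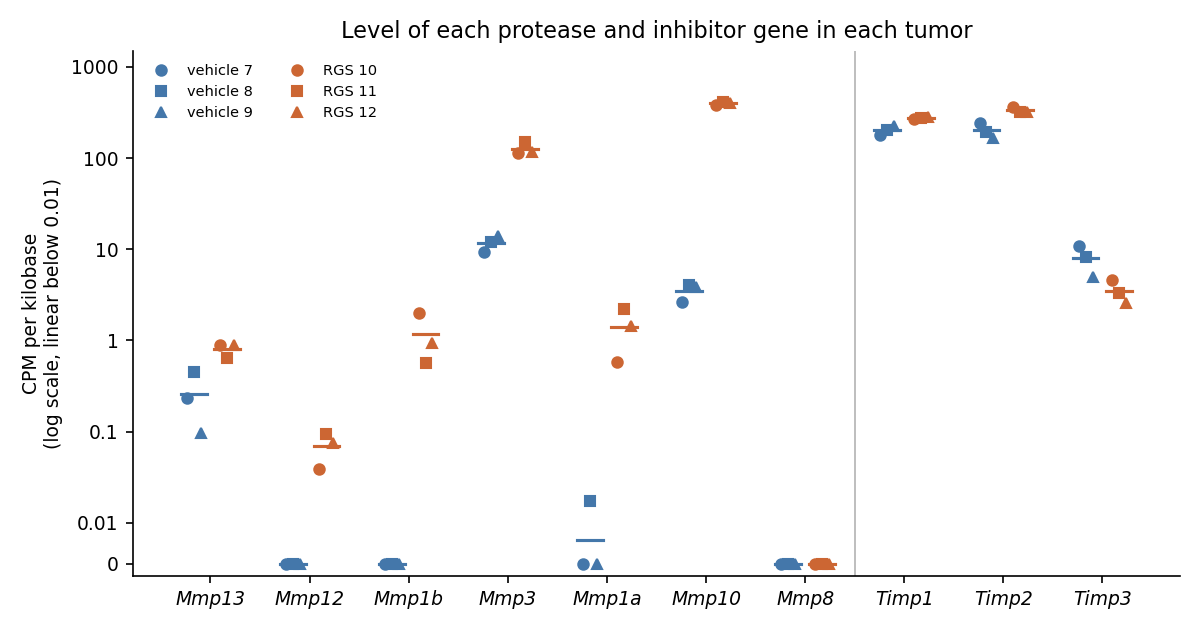
Level of the 7 cluster proteases, in genome order, and the 3 Timp genes in each tumor, in CPM per kilobase on a log axis that is linear below 0.01. Each point is 1 tumor and each bar the mean of 3. *Mmp10* lies at 2.62 to 4.01 in the vehicle tumors and at 385 to 416 in the RGS tumors, while *Timp3* is the gene whose RGS points lie below its vehicle points.

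The stromelysins *Mmp10* and *Mmp3* degrade proteoglycans, laminin and fibronectin and can activate other proMMPs. *Mmp10* (stromelysin 2, ENSMUSG00000047562.3, chromosome 9 of GRCm38, bases 7502352 to 7510240, plus strand) had 158, 194 and 153 counts in vehicle 7, 8 and 9 and 14018, 9506 and 11170 in RGS 10, 11 and 12. The groups were far apart, although the RGS libraries were the shallower ones. The means of 6.00 ± 1.30 CPM for vehicle and 688 ± 26.5 CPM for RGS (SD over n = 3 tumors a group) differed 115-fold, with a log2 fold change of 6.85 (standard error 0.21). The coefficient of variation among tumors was 21.7% with vehicle and 3.86% with RGS. Per kilobase, *Mmp10* ranked between 7459 and 8694 among all genes of the table in the vehicle tumors and between 84 and 99 in the RGS tumors. By log2 fold change it ranked 5 among the 14258 tested genes with a count in every vehicle tumor. Across the alternative settings, which included other scalings, another test, counts thinned to the smallest library and each tumor left out, it lay between 6.67 and 6.98.

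*Mmp3* (stromelysin 1, ENSMUSG00000043613.8, bases 7445822 to 7455975, plus strand) had 582, 606 and 592 counts with vehicle and 4272, 3616 and 3435 with RGS. Again the groups did not overlap, with vehicle 7 the lowest and RGS 11 the highest in CPM per kilobase (9.22 and 151). The means of 21.2 ± 4.43 CPM for vehicle and 228 ± 38.4 CPM for RGS (SD over n = 3 tumors a group) differed 10.8-fold, with a log2 fold change of 3.43 (standard error 0.20). It ranked 86 by log2 fold change among the same 14258 genes. The order of the stromelysins in level was opposite in the groups. The ratio of *Mmp10* to *Mmp3* per kilobase was 0.270 to 0.335 in vehicle tumors and 2.75 to 3.43 in RGS tumors. The transcript sequences of both genes share 140 runs of 50 bases, 8.37% of those of *Mmp10*, so a minority of reads could fit either gene.

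The collagenases cut fibrillar collagen within its triple helix. *Mmp13* (collagenase 3, ENSMUSG00000050578.10, bases 7272514 to 7283331, plus strand) had 22, 34 and 6 counts with vehicle and 51, 23 and 39 with RGS. In CPM per kilobase these were 0.235, 0.453 and 0.0965 with vehicle and 0.903, 0.648 and 0.893 with RGS. All RGS values lay above the vehicle values, but with a gap between vehicle 8 and RGS 11 that was smaller than the range of the vehicle tumors. The mean was 0.262 ± 0.180 with vehicle and 0.815 ± 0.144 with RGS (SD, n = 3 each), 3.11-fold apart, with a log2 fold change of 1.63 (standard error 0.93). Without vehicle 8 the log2 fold change was 2.30.

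*Mmp1a* (ENSMUSG00000043089.6, bases 7464141 to 7476869, plus strand), a rodent counterpart of interstitial collagenase that the table classes as a polymorphic pseudogene, had 0, 1 and 0 counts with vehicle and 25, 60 and 48 with RGS. The ratio of the pooled counts, scaled to library size, was 226 with an exact 95% counting interval of 39.9 to 9007, which is wide because it rests on 1 count in vehicle 8. *Mmp1b* (ENSMUSG00000041620.8, bases 7368239 to 7388047, minus strand), the related copy, had 0 counts in every vehicle tumor and 62, 11 and 22 with RGS. It was at least 15.9-fold higher with RGS, against a floor of 3 counts in each vehicle library, and at least 10.1-fold higher without RGS 10. The tumors did not order these copies alike, since RGS 10 had the highest *Mmp1b* level (2.03 CPM per kilobase) and the lowest *Mmp1a* level (0.585). The copies share 165 runs of 50 bases, 8.15% of those of *Mmp1a*, and 19.7% of the runs of *Mmp1b* are found in another gene, so counts could have been split between them. *Mmp8* (neutrophil collagenase, ENSMUSG00000005800.3, bases 7558456 to 7568485, plus strand) had 0 counts in all 6 tumors. Beside this, the summed level of the neutrophil markers was 0.114 to 0.559 CPM with vehicle and 0.473 to 0.673 CPM with RGS.

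*Mmp12* (macrophage elastase, ENSMUSG00000049723.14, bases 7344381 to 7369499, plus strand) had 0 counts in every vehicle tumor and 6, 9 and 9 with RGS. It was at least 4.70-fold higher with RGS, a bound that lay between 3.89 and 5.73 when single tumors were left out. *Mmp12* and *Mmp1b* overlap on opposite strands by 157 exonic bases, 2.17% of *Mmp12* and 10.8% of *Mmp1b*, and the strand setting of the counting is not given in the sources used here. The macrophage genes *Adgre1*, *Csf1r* and *Lyz2* stayed at or under 3 counts in each tumor. The summed level of 10 macrophage markers, nearly all of it *Cd68* and *Mertk*, was 90.1 to 100.7 CPM with vehicle and 101.7 to 137 CPM with RGS.

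The change was next set out by position. The 10 Mmp genes of the cluster lie within 427 kb of chromosome 9, between 7272514 and 7699585, in the order *Mmp13*, *Mmp12*, *Mmp1b*, *Mmp3*, *Mmp1a*, *Mmp10*, *Mmp8*, *Mmp27*, *Mmp20* and *Mmp7*. Counts were confined to the genes from *Mmp13* to *Mmp10*, apart from 2 counts of *Mmp27* in RGS 10. *Mmp20* (enamelysin) and *Mmp7* (matrilysin) had 0 counts in all tumors. *Mmp3*, *Mmp1a* and *Mmp10* follow each other with gaps of 8.17 and 25.5 kb, and these neighbors differed by 10.8-fold, by the ratio of 226 given above and by 115-fold. A gap of 48.2 kb then separates *Mmp10*, the most abundant protease with RGS, from *Mmp8* at 0 counts. *Mmp13* at the other end, 61.0 kb before *Mmp12*, had the smallest difference of the detected proteases that have a fold from counts in both groups.

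The genes beside the cluster moved in both directions. Within 1000000 bases on either side, 9 of 10 protein-coding genes could be tested. Of these, 1 was called higher and 3 lower by edgeR, against 16.3% and 16.5% of all genes, and the median log2 fold change was −0.22. On the *Mmp13* side, *Pdgfd*, which encodes a growth factor of the PDGF family, fell, with 26.9 ± 3.54 CPM in vehicle tumors against 8.85 ± 1.17 CPM in RGS tumors (SD over n = 3, log2 fold change −1.60, edgeR adjusted p = 6.67e-05). The nearer genes on that side, *Dync2h1* and *Dcun1d5*, had log2 fold changes of −0.11 and −0.22 and did not pass. On the *Mmp7* side, *Tmem123* had a log2 fold change of −0.69 (edgeR adjusted p = 0.0119), a call that was lost without RGS 12 (adjusted p = 0.0677). *Birc2*, which encodes an inhibitor of apoptosis, fell, with 33.0 ± 5.48 CPM in vehicle tumors against 15.3 ± 4.63 CPM in RGS tumors (SD over n = 3, log2 fold change −1.11, edgeR adjusted p = 0.00188). Its neighbor and relative *Birc3* had a log2 fold change of 0.47 and did not pass. *Yap1*, the Hippo pathway coactivator, rose by 0.44 on the log2 scale (edgeR adjusted p = 0.0376), but the call was lost with library size as the only scaling and without any 1 of RGS 10, RGS 11, RGS 12, vehicle 8 or vehicle 9 (adjusted p up to 0.184).

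**Figure D2:**
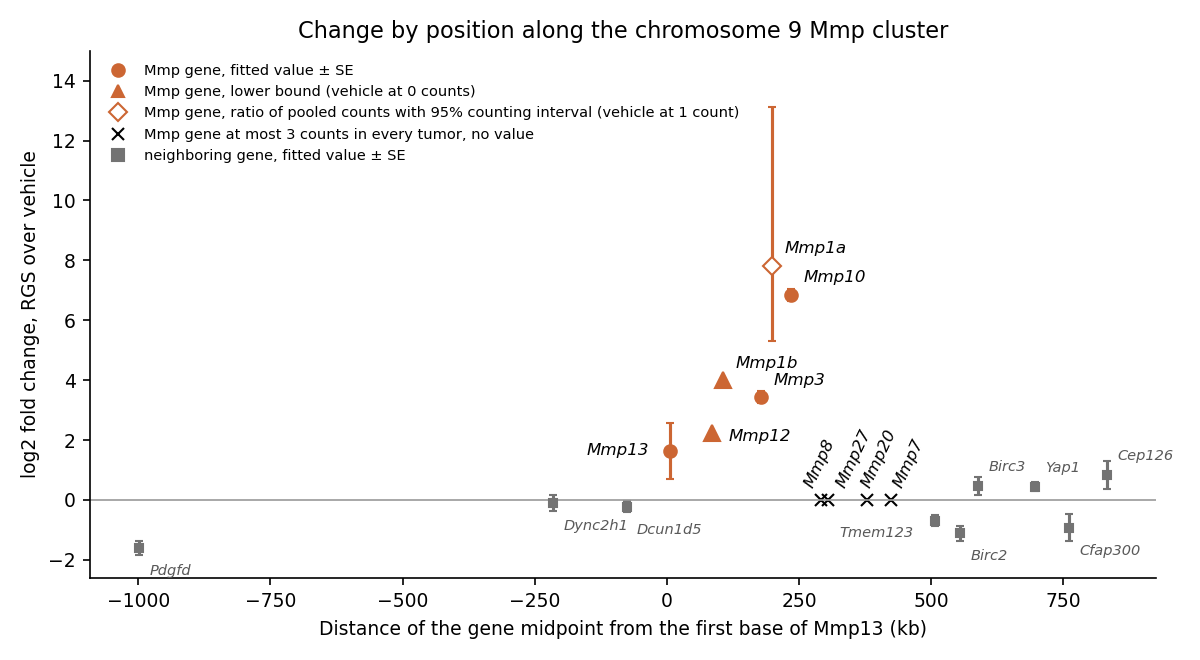
Log2 fold change (RGS over vehicle) of the Mmp genes and of the tested neighbors against the distance of each gene's midpoint from the first base of *Mmp13*, in kb. Circles and squares are fitted values with their standard error, triangles are lower bounds, the open diamond is the ratio of pooled counts of *Mmp1a* with its counting interval, and crosses are genes with at most 3 counts in each tumor. *Mmp10* stands at 6.85 and the neighboring genes lie between −1.60 and 0.83.

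The inhibitors moved less than the proteases, and not all in 1 direction. *Timp1*, a secreted inhibitor of most MMPs (ENSMUSG00000001131.11, chromosome X, bases 20870166 to 20874735, plus strand), stood at 179, 205 and 226 CPM per kilobase in the vehicle tumors and 265, 274 and 282 in the RGS tumors. The groups did not overlap, and vehicle 9 was nearest to the RGS tumors. The mean was 203 ± 23.4 with vehicle and 274 ± 8.75 with RGS (SD, n = 3 each), 1.35-fold apart, with a log2 fold change of 0.43 (standard error 0.15). *Timp1* was among the most abundant transcripts in both groups, with ranks per kilobase of 200 to 209 with vehicle and 138 to 156 with RGS. With library size as the only scaling its log2 fold change was 0.29. That scaling moved the median of all genes to −0.19. Relative to the median the value was 0.48 under both scalings, which had to agree because scaling shifts all genes nearly alike. *Timp1* lies within *Syn1* on the opposite strand, without shared exonic bases. *Syn1* itself rose, with mean levels of 10.3 CPM in vehicle tumors and 77.0 CPM in RGS tumors (log2 fold change 2.90, edgeR adjusted p = 1.15e-07). Any part of *Syn1* reads in the *Timp1* counts was not tested.

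*Timp2* (ENSMUSG00000017466.9, chromosome 11, bases 118301069 to 118355740, minus strand) also takes part in the activation of proMMP2 at the cell surface. It stood at 242, 195 and 166 CPM per kilobase with vehicle and 360.2, 316 and 320.4 with RGS. All RGS values lay above the vehicle values. The mean was 201 ± 37.9 with vehicle and 332 ± 24.2 with RGS (SD, n = 3 each), 1.65-fold apart, with a log2 fold change of 0.73 (standard error 0.16).

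*Timp3* (ENSMUSG00000020044.13, chromosome 10, bases 86300372 to 86349506, plus strand) is held in the extracellular matrix and also inhibits ADAM and ADAMTS proteases. It stood at 10.8, 8.33 and 4.95 CPM per kilobase with vehicle and 4.63, 3.33 and 2.61 with RGS, so that vehicle 9 and RGS 10 were close. The mean was 8.01 ± 2.92 with vehicle and 3.52 ± 1.02 with RGS (SD, n = 3 each), a ratio of 0.440 and a log2 fold change of −1.18 (standard error 0.26). Across all alternatives the log2 fold change stayed between −1.43 and −0.91. *Timp3* shares 1733 exonic bases, 21.3% of its own, with *Syn3* on the opposite strand, but *Syn3* had only 1 to 19 counts in a tumor while *Timp3* had 347 to 3069.

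The vehicle tumors also differed among themselves. Relative to the group mean on the log2 scale, vehicle 7 was the lowest for *Mmp10* (−0.39), *Mmp3* (−0.33) and *Timp1* (−0.18) and the highest for *Timp2* (0.28) and *Timp3* (0.50). Vehicle 9 deviated to the other side for *Mmp10*, *Mmp3* and *Timp1* (0.16, 0.28 and 0.16) and for *Timp2* and *Timp3* (−0.26 and −0.62). The pooled SD within groups on this scale was 0.123 for *Timp1*, 0.204 for *Timp2*, 0.242 for *Mmp10*, 0.275 for *Mmp3* and 0.499 for *Timp3*. *Timp3* was thus the most variable of these 5 genes among tumors of a group and *Timp1* the least.

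The genes were then ordered by level in CPM per kilobase. In vehicle tumors the order of the means was *Timp1* (203), *Timp2* (201), *Mmp3* (11.8), *Timp3* (8.01), *Mmp10* (3.48) and *Mmp13* (0.262), followed by *Mmp1a* with 1 count. *Timp1* and *Timp2* overlapped in this order, as did *Mmp3* and *Timp3*. In RGS tumors *Mmp10* (399) stood first, above *Timp2* (332), *Timp1* (274), *Mmp3* (127) and *Timp3* (3.52), with no overlap between neighbors in the order. Below them, *Mmp1a* (1.42), *Mmp1b* (1.176) and *Mmp13* (0.815) overlapped, and *Mmp12* (0.0697) came last.

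The balance of protease to inhibitor transcripts was computed within each tumor, as the level summed over the 7 proteases against the level summed over the 3 Timp genes. The proteases summed to 12.1, 16.5 and 18.0 CPM per kilobase in the vehicle tumors and 501, 571 and 517 in the RGS tumors. The Timp genes summed to 431, 408 and 397 and to 629, 594 and 605. Inhibitor transcripts thus stood at 35.7, 24.8 and 22.0 per protease transcript in vehicle 7, 8 and 9, and at 1.26, 1.04 and 1.17 in RGS 10, 11 and 12. The Timp sum remained above the sum of these 7 proteases in every tumor, by a small margin with RGS. The sum of all 23 Mmp genes was 157, 133 and 119 in vehicle 7, 8 and 9, below the Timp sum. In RGS 10, 11 and 12 it was 660, 744 and 685, above the Timp sum. The log2 ratio of the 7 proteases to the 3 Timp genes was −4.75 on average with vehicle and −0.20 with RGS. The difference of 4.55 corresponds to 23.3-fold, beside a pooled SD within groups of 0.275. It was 2.88 without *Mmp10*, 1.79 for all Mmp genes over *Timp1* to *Timp4* and 2.79 as a mean of log2 levels, so its size depends on *Mmp10* and on the genes summed. A ratio within a tumor does not depend on the scaling between libraries. These are transcript levels, and the activity of the proteins was not measured in these data.

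The makeup of the protease sum changed with its size. *Mmp3* made up 75.8% ± 2.80 of it with vehicle and 23.8% ± 2.32 with RGS, and *Mmp10* made up 22.4% ± 1.72 and 75.5% ± 2.29 (SD, n = 3 each). Together they held 97.1% to 99.5% of the protease sum in vehicle tumors and 99.3% to 99.4% in RGS tumors, so the collagenases and *Mmp12* contributed little to the balance. Of the inhibitor sum, *Timp1* made up 49.5% ± 7.70 with vehicle and 44.9% ± 2.53 with RGS, *Timp2* 48.6% ± 7.08 and 54.5% ± 2.39, and *Timp3* 1.93% ± 0.631 and 0.576% ± 0.153 (SD, n = 3 each). The shares of *Timp1* and *Timp2* overlapped between the groups. Between single genes, *Timp1* stood at 51.1 to 68.3 times the level of *Mmp10* with vehicle and at 0.660 to 0.711 times with RGS. Against the sum of all 23 Mmp genes of the table, which was 136 ± 19.1 CPM per kilobase with vehicle and 697 ± 43.1 with RGS (SD, n = 3 each), the cluster held 7.70% to 15.1% and 75.4% to 76.7%.

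**Figure D3:**
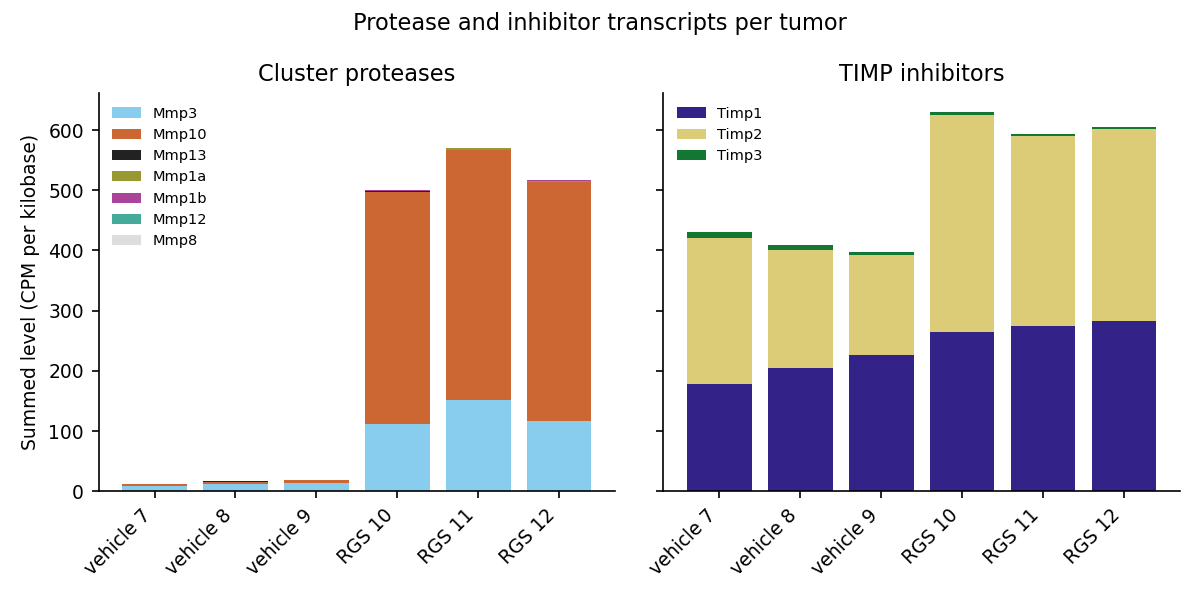
Stacked levels of the cluster proteases (left) and the Timp genes (right) in each tumor, in CPM per kilobase on a shared axis that starts at 0. The protease bars reach 12.1 to 18.0 in vehicle tumors and 501 to 571 in RGS tumors, mostly *Mmp10*, and the Timp bars 397 to 431 and 594 to 629.

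Other genes of the pathway were taken from lists of cluster genes besides the 10, MMPs outside the cluster, activators, inhibitors, promoter-binding factors, inducers, substrates and TIMP partners. The lists held 88 genes, of which 62 were tested, 19 rose and 7 fell by edgeR at an adjusted p under 0.05. Over all genes 16.3% were called higher and 16.5% lower, with a median log2 fold change of −0.05. Of 9 tested MMPs outside the cluster, 1 rose, 3 fell and 5 did not pass, with a median of −0.78. *Mmp14*, a membrane-bound collagenase that activates proMMP2, rose, with 371 ± 79.6 CPM in vehicle tumors against 750 ± 33.7 CPM in RGS tumors (SD over n = 3, log2 fold change 1.02, edgeR adjusted p = 0.000118). Its share of the summed level of all Mmp genes was 45.2% ± 3.44 with vehicle and 18.1% ± 0.708 with RGS (SD, n = 3 each). *Mmp11* and *Mmp19* fell by 0.91 and 0.95 on the log2 scale. *Mmp16* was at 0 counts in every RGS tumor and at least 5.24-fold lower there, a call that was lost without vehicle 8 or vehicle 9 (adjusted p up to 0.0757). It passed the filter only through the vehicle tumors, so that it had to differ. The gelatinase *Mmp2* stood at 70.3 ± 15.7 and 68.5 ± 11.7 CPM (SD, n = 3 each, edgeR adjusted p = 0.896).

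All 5 tested activators of proMMPs rose, with a median of 1.95, and the other 8 genes of that list were too low to test. The 5 were *Plau*, *Plat* and *Plaur* (log2 fold changes of 2.46, 2.09 and 1.95), which form plasmin from plasminogen or anchor that reaction at the cell surface, the proprotein convertase *Furin* (1.03) and *Mmp14*. *Plau*, *Plat* and *Plaur* were known to be higher in these tumors when the list was written. The plasminogen gene itself, *Plg*, had 0 counts in every tumor. Among other inhibitors and clearance receptors, 2 of 6 tested genes rose and 4 did not pass, with a median of 1.03. *Lrp1*, an endocytic receptor that clears protease and inhibitor complexes, rose by 1.40 on the log2 scale (edgeR adjusted p = 2.4e-05). *Reck*, a membrane-anchored MMP inhibitor, stood at 4.89 ± 2.49 and 8.05 ± 2.13 CPM (SD, n = 3 each, edgeR adjusted p = 0.228). The remaining inhibitor gene of the TIMP family, *Timp4*, had 0 counts with vehicle and 0, 1 and 8 counts with RGS.

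Of 15 tested transcription factors known to act on MMP promoters, 4 rose, 1 fell and 10 did not pass, with a median of 0.19. Among the AP-1 genes, whose products bind the letters printed above, 1 of 6 tested genes rose. *Fosb* rose by 0.68 on the log2 scale, a call that was lost with library size only and without RGS 12, vehicle 8 or vehicle 9 (adjusted p up to 0.0766). *Jun* (−0.02), *Junb* (−0.14), *Fosl1* (0.28), *Fosl2* (0.02) and *Fos* (−0.77) did not pass. *Jun* stood at 453 ± 36.4 and 446 ± 42.4 CPM (SD, n = 3 each) and *Fosl1* at 264 ± 32.9 and 321 ± 47.1 CPM. Outside AP-1, *Ets2* (1.11), *Cebpb* (0.86) and *Rela* (0.70) rose. *Ets1* fell by 0.56 on the log2 scale, a call that was lost without RGS 11 or RGS 12 (adjusted p up to 0.0724).

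Of 12 tested cytokines and inducers, 4 rose and 8 did not pass, with a median of 0.41. *Areg*, an EGF receptor ligand, rose, with 33.7 ± 5.35 CPM in vehicle tumors against 459 ± 26.5 CPM in RGS tumors (SD over n = 3, log2 fold change 3.77, edgeR adjusted p = 1.74e-11). The related ligand *Ereg* rose by 0.59, a call that was lost without RGS 12 (adjusted p = 0.0512). *Hbegf* rose by 0.41, but lost its call under 7 alternatives, among them each single tumor left out except vehicle 7 (adjusted p up to 0.228). *Il1a*, a cytokine that induces stromelysins in many cell types, had 2, 1 and 2 counts with vehicle and 14, 26 and 32 with RGS. It passed the filter only through the RGS tumors, so that it had to differ. The ratio of its pooled counts was 24.5 with an exact 95% counting interval of 10.03 to 77.8, and its call was lost without vehicle 7, vehicle 8, RGS 11 or RGS 12 (adjusted p up to 0.0941).

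Substrates moved in both directions. Of 10 tested genes, 2 rose, 3 fell and 5 did not pass, with a median of −0.22. Fibronectin (*Fn1*) and osteopontin (*Spp1*), both cut by stromelysins, rose by 1.08 and 2.13 on the log2 scale (edgeR adjusted p = 0.00038 and 6.38e-09). The fibrillar collagen genes *Col3a1* (−0.90) and *Col1a2* (−0.73) fell, while *Col1a1* (0.10) did not pass. Of 9 tested TIMP partners, 3 rose and 6 did not pass, with a median of −0.04. Besides *Mmp14*, these were the aggrecanase *Adamts4* (0.82) and the sheddase *Adam17* (0.51), both of them targets of *Timp3*. The call for *Adam17* was lost with library size only and without RGS 10, RGS 11, vehicle 8 or vehicle 9 (adjusted p up to 0.226).

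**Figure D4:**
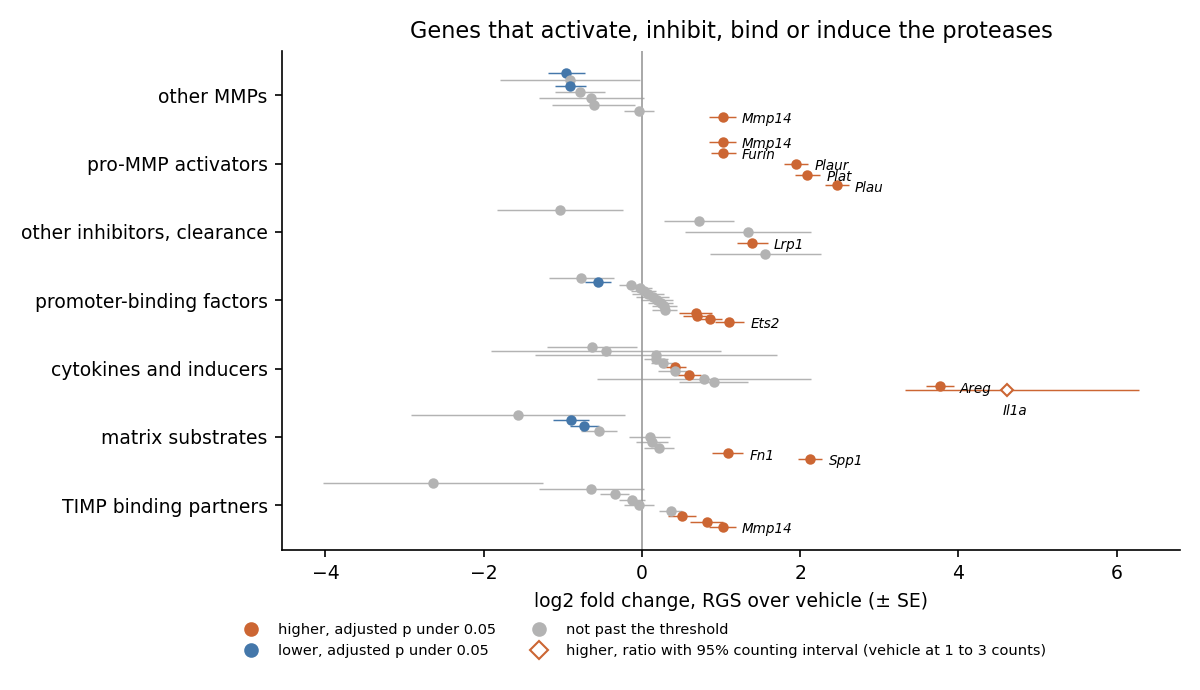
Log2 fold change (RGS over vehicle) of tested genes of each list with its standard error, colored by direction where the adjusted p was under 0.05. The open diamond is the ratio of pooled counts of *Il1a* with its counting interval, and *Mmp16*, at 0 counts in every RGS tumor, is left out. All 5 activators lie to the right of 0, while of the other MMPs *Mmp14* does so with a value of 1.02.

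The genes most like *Mmp10*, *Mmp3* and *Timp1* over the 6 tumors were sought among 12232 other genes, by the distance between their centered log2 levels, which in so few tumors follows mainly the difference between the groups. Nearest to *Mmp10* were *Trdc* (distance 0.562), *Rgs5* (1.41), *Crisp1* (1.75), *Cyp1a1* (2.02) and *Acsbg1* (2.21). *Trdc*, the constant segment of the T-cell receptor delta chain, had mean levels of 0.959 CPM with vehicle and 129 CPM with RGS in libraries with 0 counts of *Cd3e*. *Cyp1a1*, an enzyme of xenobiotic metabolism, had mean levels of 3.25 and 146 CPM. Nearest to *Mmp3* were *Procr* (0.452), *Angptl4* (0.467), *Mcpt1* (0.502), *Fetub* (0.524) and *Fam78b* (0.527). *Mcpt1* had mean levels of 0 CPM with vehicle and 5.08 CPM with RGS, so its distance depends on the 0.5 CPM added before taking logs. *Procr*, the endothelial protein C receptor, had mean levels of 53.8 and 536 CPM, and *Angptl4*, an inhibitor of lipoprotein lipase, of 30.6 and 291 CPM. Nearest to *Timp1* were *Nans* (0.123), *Tmed3* (0.128), *Lpar6* (0.140), *Puf60* (0.156) and *Dnase2a* (0.163), with log2 fold changes of 0.41 to 0.53 beside 0.43 for *Timp1* itself.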

How the data were processed

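The authors sequenced paired-end reads of 150 bases and deposited the raw counts of every gene in each tumor. The submitters' processing notes name cutadapt 1.18, FastQC 0.11.7, STAR 2.7.1a, featureCounts 1.6.4 and mm10. The handling of strand and of reads that fit several genes is not given in the sources used here. Of the 40166 genes, 17378 had no count, and 38971 identifiers had the same positions in GENCODE M21 (GRCm38). Columns were matched to samples by treatment and number.

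From these counts, log2 fold changes were fitted by edgeR 4.0.16 under R 4.3.3, with TMM factors (0.920 to 1.08), for genes with a median of 5 or more counts in either group. This was followed by the quasi-likelihood F test and Benjamini-Hochberg adjustment over 15355 genes. No p-value is given for the 10 genes described, since they were chosen on this contrast, and their calls are only counted beside the share over all genes. Standard errors were derived from each log2 fold change and its F statistic. A fold against a group at 0 counts is a bound against a floor of 3 counts in each library, and with 1 to 3 counts a ratio of pooled counts with an exact binomial 95% interval is given. CPM was divided by gene length in kilobases. Motifs were searched in RefSeq promoter windows, and shared runs of 50 bases were counted in GENCODE transcripts. The steps were tested on simulated data.

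The alternatives were RLE factors, library size only, DESeq2 1.42.0, other filters, counts thinned to the smallest library and each tumor left out. A fold threshold was added after the data were seen.

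The members and lists were chosen with earlier results of these data known. Genes named were the members, the other cluster genes, tested genes within 1000000 bases, up to 3 called genes with the largest and 3 with the smallest change of each list, and the 5 genes nearest in distance of log2(CPM + 0.5), with a mean of at least 1 CPM, to *Mmp10*, *Mmp3* and *Timp1*. *Reck*, *Timp4*, *Mmp2*, *Plaur*, *Plg*, *Fosb*, *Jun*, *Junb*, *Fosl1*, *Fosl2*, *Fos* and *Col1a1* are given beyond that rule. Some genes of the lists are counted but not reported here by name or in the plot.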

Additional observations from a re-analysis of the deposited data

How the results depend on the processing

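No called value changed its sign under the alternatives run. Of the genes that did not pass, 11 had log2 fold changes that changed sign without passing. With library size only these were *Col1a1* (−0.054), *Col4a2* (−0.022), *Fosl2* (−0.12), *Nfkb1* (−0.069) and *Runx2* (−0.0093). With each tumor left out in turn the genes that crossed 0 were *Adam10* (−0.22 to 0.019), *Col1a1* (−0.12 to 0.26), *Col4a2* (−0.078 to 0.49), *Dync2h1* (−0.26 to 0.092), *Fosl2* (−0.067 to 0.18), *Hgf* (−3.84 to 0.73), *Jun* (−0.11 to 0.036), *Mmp2* (−0.18 to 0.15), *Nfkb1* (−0.084 to 0.26) and *Tnf* (−2.99 to 0.18). Across all alternatives the log2 fold change lay at 3.27 to 3.58 for *Mmp3*, 1.25 to 2.30 for *Mmp13*, 0.29 to 0.51 for *Timp1* and 0.58 to 0.88 for *Timp2*. Relative to the median of all genes, with library size only as with TMM, *Timp2* stood at 0.77 and *Timp3* at −1.14. These values had to agree between the scalings, since scaling shifts all genes nearly alike. Library size only called 1870 genes higher and 3152 lower, 37.2% of calls higher against 49.7% with TMM. With an added log2 fold change of at least 1 in size, chosen after seeing the data, 1168 genes were called higher and 1450 lower instead of 2503 and 2533. Leaving out each tumor gave 3493 (without vehicle 8) to 5249 calls (without vehicle 7) in all, against 5036. The count of genes beside the cluster called higher was 0 with library size only, and 0 to 1 with each tumor left out. The log2 balance of proteases to inhibitors differed by 4.34 to 4.69 between groups with each tumor left out, by 2.88 without *Mmp10*, by 1.79 for all Mmp genes over *Timp1* to *Timp4*, and by 2.79 as a mean of log2 levels. Of 71 named genes outside the 10, 32 calls were lost and 17 gained over 12 alternatives. No paired analysis was possible because the tumor numbers, 7 to 9 and 10 to 12, are shared by no pair. Depth limits *Mmp12*, *Mmp1a* and *Mmp1b*, whose vehicle levels are below the floor. The filterByExpr alternative removed *Mmp12* and gives no value for it.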
